A study of Mus musculus with 4 samples.

Results

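The Apoe-Apoc cluster is a short run of apolipoprotein genes on mouse chromosome 7. It was described here as 6 genes chosen by symbol, out of 23735 loci in the table: the 4 clustered apolipoprotein genes Apoe, Apoc1, Apoc4 and Apoc2, and the adjoining genes Tomm40 and Clptm1. Each of the 6 stood on a single line with its own locus, and all 6 passed the filter on low values. The order in the table, which is also their order in the RefSeq annotation, was Clptm1, Apoc2, Apoc4, Apoc1, Apoe, Tomm40. The genes were proposed with their difference between the groups in view, so their values are given as a description, with no test.

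RNA came from peritoneal macrophages of C57BL/6 mice 6 weeks old, collected 3 days after an injection of 3% thioglycolate, an irritant that recruits macrophages to the peritoneum, and then cultured. The groups were Ch25h_WT, labelled ApoE-/-/Ch25h+/+, and Ch25h_KO, labelled ApoE-/-/Ch25h-/-, with 2 libraries each. Both groups were therefore labelled as lacking apolipoprotein E, and differed by label only in Ch25h, which encodes the cholesterol 25-hydroxylase. The design text names 12 mice per group and biological duplicates. It does not say how mice were pooled into libraries, and the labels do not say which Apoe or Ch25h alleles were used.

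Apolipoprotein E (apoE) is the surface protein by which remnant lipoproteins are taken up by receptors on cells, and macrophages secrete it with cholesterol. The C apolipoproteins are small proteins that move between lipoprotein particles. Apolipoprotein C-II activates lipoprotein lipase, whereas apolipoprotein C-I slows particle uptake and inhibits cholesteryl ester transfer. In macrophages the 4 genes share distal enhancers that bind the liver X receptors (LXR), nuclear receptors switched on by oxysterols such as 25-hydroxycholesterol, the product of Ch25h. Tomm40 encodes the pore of the mitochondrial outer membrane import channel, and Clptm1 encodes a membrane protein of the endoplasmic reticulum that limits the surface export of GABA-A receptors.

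The stretch around the start of each gene is shown for 3 of the clustered genes and for Tomm40. Any link of these stretches to the differences between the groups was not tested. The windows run from 250 bases before to 50 bases after a start site, 5′ to 3′ on the minus strand, in RefSeq of build GRCm38.p6, which is not the build of the expression table (mm9). They lie at chr7:19699139-19699438 for Apoe (the most upstream of its 3 windows), chr7:19681411-19681710 for Apoc4, chr7:19677892-19678191 for Apoc2 and chr7:19715380-19715679 for Tomm40. Capitals mark matches, on either strand, to the GC box GGGCGG, the CCAAT box, the TATA box TATAAA, the nuclear receptor element AGGTCA and the ETS core GAGGAA of the kind bound by the macrophage factor PU.1. None of the 5 searched words holds another.
Apoe: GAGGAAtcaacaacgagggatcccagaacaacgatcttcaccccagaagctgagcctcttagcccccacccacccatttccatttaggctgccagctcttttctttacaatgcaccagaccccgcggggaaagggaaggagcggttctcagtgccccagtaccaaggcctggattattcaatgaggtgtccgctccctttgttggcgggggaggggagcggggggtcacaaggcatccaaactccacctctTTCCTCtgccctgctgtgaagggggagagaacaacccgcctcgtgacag
Apoc4: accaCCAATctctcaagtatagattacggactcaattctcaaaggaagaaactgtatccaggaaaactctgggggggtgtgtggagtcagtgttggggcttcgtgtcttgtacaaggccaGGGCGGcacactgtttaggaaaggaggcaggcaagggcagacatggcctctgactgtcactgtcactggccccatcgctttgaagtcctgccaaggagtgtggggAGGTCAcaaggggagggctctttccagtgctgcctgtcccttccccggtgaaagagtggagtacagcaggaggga
Apoc2: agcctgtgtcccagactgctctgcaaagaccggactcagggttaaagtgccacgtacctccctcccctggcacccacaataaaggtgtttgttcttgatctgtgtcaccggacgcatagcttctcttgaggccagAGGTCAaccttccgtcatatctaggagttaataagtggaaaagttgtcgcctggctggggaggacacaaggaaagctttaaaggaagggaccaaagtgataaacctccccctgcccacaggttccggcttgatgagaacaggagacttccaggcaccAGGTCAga
Tomm40: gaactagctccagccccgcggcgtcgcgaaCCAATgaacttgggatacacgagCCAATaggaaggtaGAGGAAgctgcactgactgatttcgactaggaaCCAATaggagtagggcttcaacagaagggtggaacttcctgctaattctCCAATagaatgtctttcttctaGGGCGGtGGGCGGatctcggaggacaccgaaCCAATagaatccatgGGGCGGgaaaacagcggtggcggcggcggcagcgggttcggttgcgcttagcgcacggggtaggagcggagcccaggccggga

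Windows were found for 5 of the 6 genes, with none for Apoc1. Tomm40 held 5 CCAAT boxes and 3 GC boxes, and Clptm1 held 3 GC boxes. Over all 32851 windows of this length, 37.4% held a CCAAT box and 35.7% a GC box. The Apoe window held neither and had 2 matches to GAGGAA, a word found in 28.3% of windows. The element AGGTCA, found in 16.3% of windows, occurred 2 times in the Apoc2 window and 1 time in the Apoc4 window, the latter beside 1 GC box and 1 CCAAT box. Tomm40 also had 1 match to GAGGAA. No TATAAA was found in the 5 windows described here, against 13.6% of all. The LXR element DR4, searched as 2 copies of AGGTCA with any 4 bases between them and so holding the shorter word, was found in none of the members' windows and in 0.0152% of all windows. These matches describe letters in the window and no binding was measured.

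The libraries were first compared with their labels. Ch25h, the targeted gene, was 63.3 and 65.3 FPKM (fragments scaled by transcript length and by library size) in Ch25h_WT, against 4.25 and 5.53 FPKM in Ch25h_KO, so the group labelled as lacking it was the lower one (limma adjusted p = 0.0031). The steps of low values gave relative depths between 0.770 and 1, and transcript lengths gave implied depths of 9640000 to 12500000 fragments. The 7 macrophage markers looked for, among them Lyz2, Cd68 and Csf1r, were all above 20 FPKM in every library. They summed to 26722 and 27669 FPKM in Ch25h_WT and to 28796 and 28097 FPKM in Ch25h_KO. Most of each sum was Lyz2 (a mean of 20139 against 19901 FPKM). Cd14 was higher in Ch25h_KO without overlap (5178 and 5288 against 6870 and 6751 FPKM). Emr1 (a mean of 422 against 384 FPKM) and Csf1r (311 against 283 FPKM) were lower without overlap, and the other macrophage markers overlapped. Markers of other cells that make apolipoproteins were at or near 0: all 6 hepatocyte markers were listed at 0 in all 4 libraries, as were 3 of 4 adipocyte markers, and the 5 mesothelial markers summed to between 0.515 and 1.48 FPKM. Several marker lists differed between the groups in sum, although no member of any was called. Over all 10074 loci tested in the fit described below, the groups failed to overlap at 53.7%, with 23.4% higher and 30.3% lower in Ch25h_KO. The 5 mast cell markers summed to 215 and 221 FPKM in Ch25h_WT and to 147 and 152 FPKM in Ch25h_KO, and all 5 were lower without overlap. The 4 B cell markers were also lower without overlap (314 and 315 against 278 and 294 FPKM in sum). The 4 neutrophil markers found summed to 71.1 and 81.4 against 115 and 116 FPKM. Most of that sum was S100a8 (a mean of 61.4 against 98.8 FPKM), while Camp was lower without overlap (0.906 and 1.36 against 0.880 and 0.471 FPKM). The erythroid and platelet markers (Gp9 listed at 0) summed to 32.3 and 35.3 against 46.4 and 48.2 FPKM, and the 4 T cell markers to 20.0 and 23.0 against 24.0 and 22.2 FPKM. The part of these cells in the results below was not tested, and in such bulk samples fewer cells of a type and less RNA per cell cannot be told apart.

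Apoe gave the highest level of the cluster in every library, although all 4 libraries were labelled ApoE-/-. Its values were 614 and 610 FPKM in Ch25h_WT, against 3683 and 3373 FPKM in Ch25h_KO. The groups lay far apart, and the Ch25h_WT pair was nearly equal. In the ranking of all loci by level, Apoe stood at places 156 and 160 in the Ch25h_WT libraries and at place 15 in both Ch25h_KO libraries. Its share of all FPKM went from 0.088% and 0.086% to 0.50% and 0.47%. The ratio of means was 5.76, and the difference was 2.52 on the log2(FPKM + 1) scale (SE 0.066, from the fit described below). A level per locus does not separate RNA of an intact Apoe allele from RNA that a disrupted allele still makes, so it does not check the Apoe label in either group.

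Apoc1 was the second most abundant gene of the cluster, and differed in the opposite direction. Its values were 258 and 285 FPKM in Ch25h_WT and 122 and 124 FPKM in Ch25h_KO. Both Ch25h_KO values lay below the lower Ch25h_WT value, with a mean 2.21 times as high in Ch25h_WT (log2 difference -1.14, SE 0.069).

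Apoc4, the least studied of the C apolipoproteins, was the lowest of the 4 genes, at 21.2 and 26.2 FPKM in Ch25h_WT and 10.5 and 9.46 FPKM in Ch25h_KO. The log2 difference was -1.16 (SE 0.12), with a mean 2.37 times as high in Ch25h_WT. This gene had the fewest fragments: about 142 and 141 in the Ch25h_WT libraries and about 58.2 and 49.0 in the Ch25h_KO libraries, taking the longest coding transcript of GENCODE as its length. Counting alone then gives an error of up to 14% of an Apoc4 value, against 4.0% for Apoc1 and 1.1% for Apoe.

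Apoc2, the activator of lipoprotein lipase, was higher in the Ch25h_KO libraries. Its values were 52.4 and 51.0 FPKM in Ch25h_WT and 75.5 and 73.9 FPKM in Ch25h_KO, with no overlap. The ratio of means was 1.44 and the log2 difference 0.52 (SE 0.053). Apoc2 and Apoc4 lie next to each other on the same strand, and RefSeq lists a read-through gene (Gm44805) across both, which was not measured here as a gene of its own. Reads of such a transcript cannot be told apart from those of Apoc2 or Apoc4 in values per locus.

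The adjoining genes were nearly level. Tomm40 was 25.9 and 25.6 FPKM in Ch25h_WT and 28.3 and 27.3 FPKM in Ch25h_KO, a ratio of 1.08 (log2 difference 0.11, SE 0.053). Clptm1 was 34.3 and 33.7 FPKM against 38.0 and 37.2 FPKM, a ratio of 1.11 (log2 difference 0.14, SE 0.052). Neither pair of groups overlapped, but the steps were small beside those of the 4 genes between them.

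**Figure D1:**
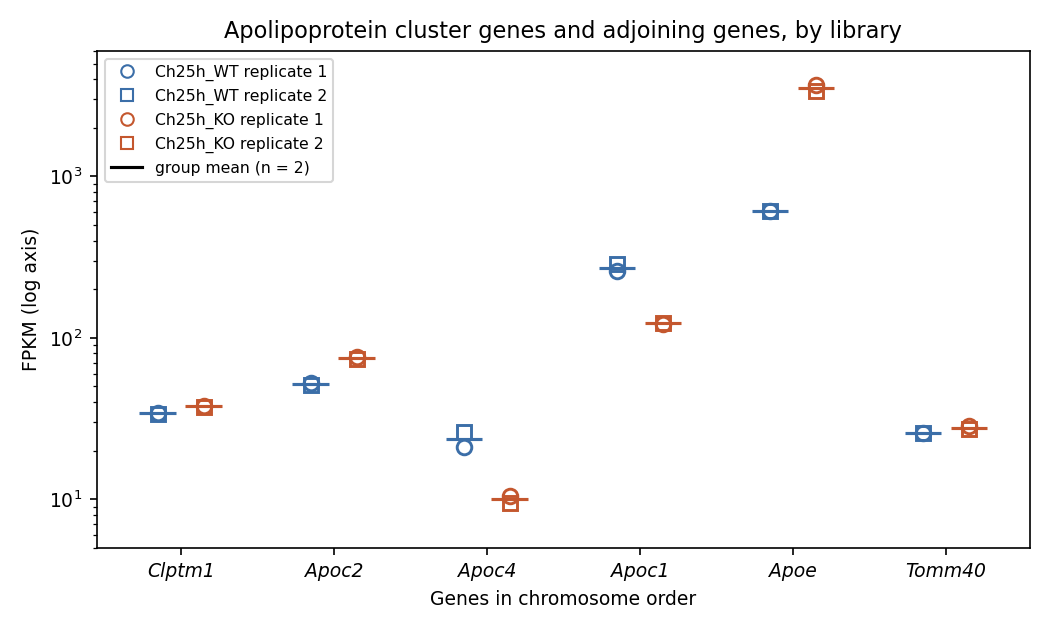
FPKM of the 6 genes on a log axis, in chromosome order, with 1 point per library (blue, Ch25h_WT; orange, Ch25h_KO; circles, replicate 1; squares, replicate 2) and a line at each group mean. Apoe and Apoc2 sit higher in Ch25h_KO, Apoc4 and Apoc1 lower, and Clptm1 and Tomm40 at the ends are close to level.

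Differences over all loci were fitted with limma, a linear model with a shared estimate of spread, on log2(FPKM + 1), for 10074 loci whose mean reached 1 FPKM. Loci with a Benjamini-Hochberg adjusted p under 0.05 were called, which held for 0.437% of those tested (0.228% higher and 0.208% lower in Ch25h_KO). Since the groups failed to overlap at 53.7% of all loci, the lack of overlap of all 6 members says little by itself. The median log2 difference over all tested loci was -0.014, and the 1st and 99th percentiles were -0.47 and 0.51. Apoe, Apoc1, Apoc4 and Apoc2 lay outside that range, and Tomm40 and Clptm1 inside it. Over all 10074 tested loci, ranked from the highest difference, Apoe stood at place 10, Apoc2 at place 96, Clptm1 at place 1489 and Tomm40 at place 1984. Ranked from the lowest, Apoc4 stood at place 27 and Apoc1 at place 28. Loci listed at 0 in some library, such as Snora43, take many of the outer places. Among the 10033 loci above 0 in all 4 libraries, Apoe had the highest difference, and Apoc4 and Apoc1 were the 4th and 5th lowest.

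The genes were also set beside other loci of like abundance. Of the 103 other loci within 1.5-fold of Apoe in the Ch25h_WT mean, log2 differences ran from -0.65 to 0.44, and none was as high as Apoe. For Apoc1 there were 220 such loci, from -0.64 to 1.17, and none was as low as Apoc1. For Apoc4, 10 of 1930 such loci were lower. For Apoc2, 7 of 1135 such loci were higher, while 214 of 1615 were higher than Clptm1 and 340 of 1851 higher than Tomm40. These ranks describe the genes for which the cluster was chosen.

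**Figure D2:**
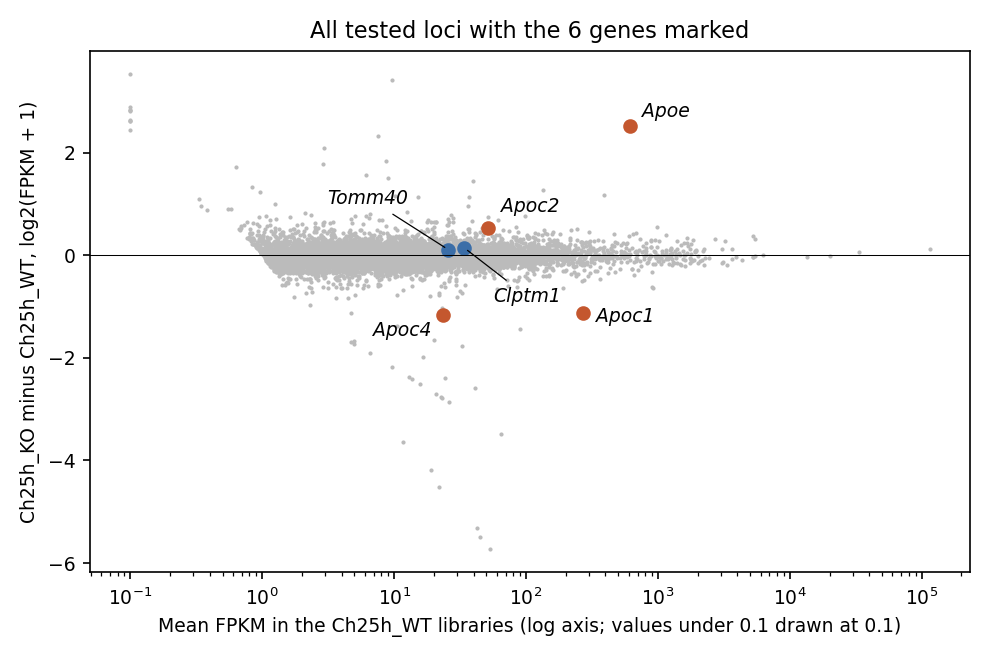
Difference between the groups on the log2(FPKM + 1) scale against the mean FPKM of the Ch25h_WT libraries (log axis), with 1 grey point for each of the 10074 tested loci. The clustered apolipoprotein genes (orange) lie above and below the cloud of loci at their level, Apoe highest at 2.52, and the adjoining genes (blue) lie within it.

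The proportions of the 4 genes also differed between the groups. FPKM are per length, so levels of different genes can be compared as far as the transcript length used holds. For Apoe it may not hold, since the libraries were labelled ApoE-/- and the allele was not stated. This limit applies to each ratio and share of Apoe given below. Apoe exceeded Apoc1 by 2.38 and 2.14 times in the Ch25h_WT libraries and by 30.2 and 27.3 times in the Ch25h_KO libraries. Apoc1 to Apoc4, the pair that was lower, kept a nearly constant ratio of 12.2 and 10.9 in Ch25h_WT and 11.6 and 13.1 in Ch25h_KO. Apoc1 to Apoc2 went from 4.94 and 5.59 to 1.62 and 1.68, and Apoc2 to its direct neighbour Apoc4 from 2.47 and 1.95 to 7.20 and 7.81. In gene order, the pair with lower values, Apoc4 and Apoc1, was thus flanked on both sides by a gene with higher values, Apoc2 and Apoe.

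Ratios to Tomm40 within a library take out any factor that scales a whole library. Apoe to Tomm40 was 23.7 and 23.8 in Ch25h_WT and 130 and 123 in Ch25h_KO. The ratio of Apoc1 to Tomm40 was 9.99 and 11.1 against 4.31 and 4.53, that of Apoc4 to Tomm40 0.818 and 1.02 against 0.371 and 0.346, and that of Apoc2 to Tomm40 2.02 and 1.99 against 2.67 and 2.70. Clptm1 to Tomm40, the ratio of both outer genes, lay between 1.32 and 1.36 in all 4 libraries. Each clustered gene kept its direction relative to Tomm40 in the same library. This could not have been otherwise, since Tomm40 itself, also 1 of the 6 genes, differed only by a ratio of 1.08.

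The summed level of the 4 apolipoprotein genes was 959 ± 18.3 FPKM in Ch25h_WT and 3736 ± 220 FPKM in Ch25h_KO (SD, n = 2 libraries per group), 3.89 times as high. Without Apoe the sum was 347 ± 21.5 and 208 ± 0.703 FPKM, or 1.67 times as high in Ch25h_WT. Apoe made up 64.9% and 62.7% of the sum in the Ch25h_WT libraries and 94.7% and 94.2% in the Ch25h_KO libraries. Apoc1 made up 27.3% and 29.3% against 3.14% and 3.46%. Although Apoc2 was higher in FPKM in Ch25h_KO, its share was lower, at 5.53% and 5.25% against 1.94% and 2.06%, since Apoe was so much higher.

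**Figure D3:**
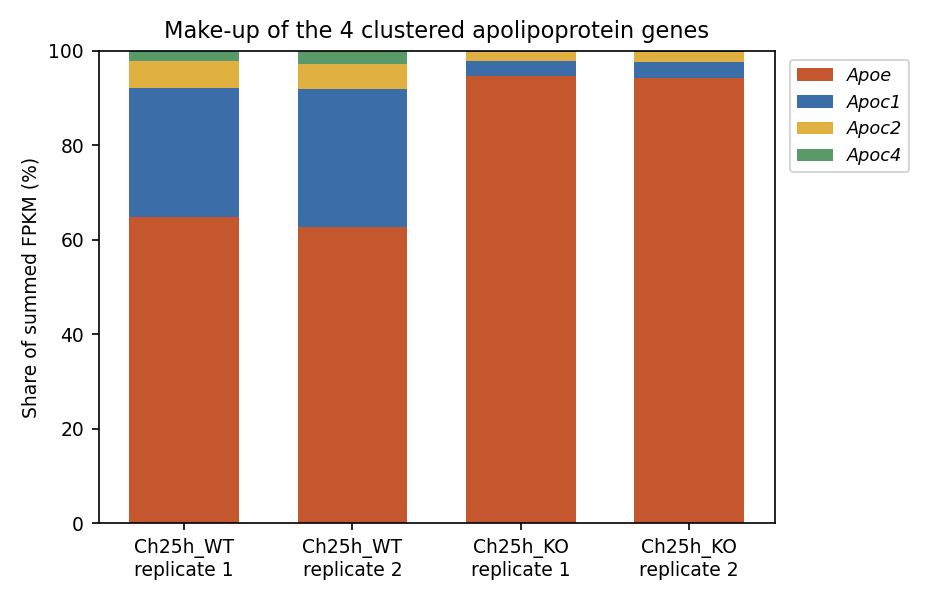
Share of each of the 4 clustered apolipoprotein genes in their summed FPKM, with 1 stacked bar per library. Apoe takes 62.7% to 64.9% of the Ch25h_WT bars and 94.2% to 94.7% of the Ch25h_KO bars, and Apoc1 shrinks from over 27% to under 4%.

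Genes further out on chromosome 7 were examined to see how far such differences reached. Of the 10 RefSeq protein-coding genes on each side of the run, 19 of 20 were matched to a locus and 13 were tested. None was called by limma (adjusted p of 0.12 or more), and 5 had an unadjusted p under 0.05, as did 20.9% of all tested loci. Differences ran from -0.22 to 0.32 with a median of 0.058. Relb, a subunit of the noncanonical NF-kB pathway that lies next to Clptm1, was 60.1 and 58.6 FPKM in Ch25h_WT and 68.2 and 67.9 FPKM in Ch25h_KO (log2 difference 0.19, SE 0.053, limma adjusted p = 0.16). Bcl3, another nuclear partner of NF-kB, on the far side of Tomm40, was 69.1 and 63.0 against 81.2 and 83.9 FPKM (log2 difference 0.32, limma adjusted p = 0.12).

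Beside Tomm40, the cell adhesion gene Pvrl2 (now Nectin2) was 3.29 and 3.50 FPKM in Ch25h_WT and 2.91 and 2.85 FPKM in Ch25h_KO, and the laminin receptor gene Bcam was 19.8 and 19.6 against 18.5 and 16.9 FPKM. On the other side, Clasrp, a splicing regulator, was 5.27 and 4.56 against 5.06 and 5.27 FPKM, and Gemin7, a subunit of the SMN complex, was 56.8 and 55.0 against 59.5 and 55.6 FPKM, with overlapping groups. Bloc1s3, of a complex for lysosome-related organelles, was 7.59 and 7.77 against 9.96 and 9.22 FPKM (limma adjusted p = 0.12). The smallest difference of an apolipoprotein gene, 0.52 for Apoc2, was thus larger in size than that of any of the 13 tested genes around the run. The apolipoprotein genes were proposed with their differences in view, however, whereas the genes around the run were taken by position.

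**Figure D4:**
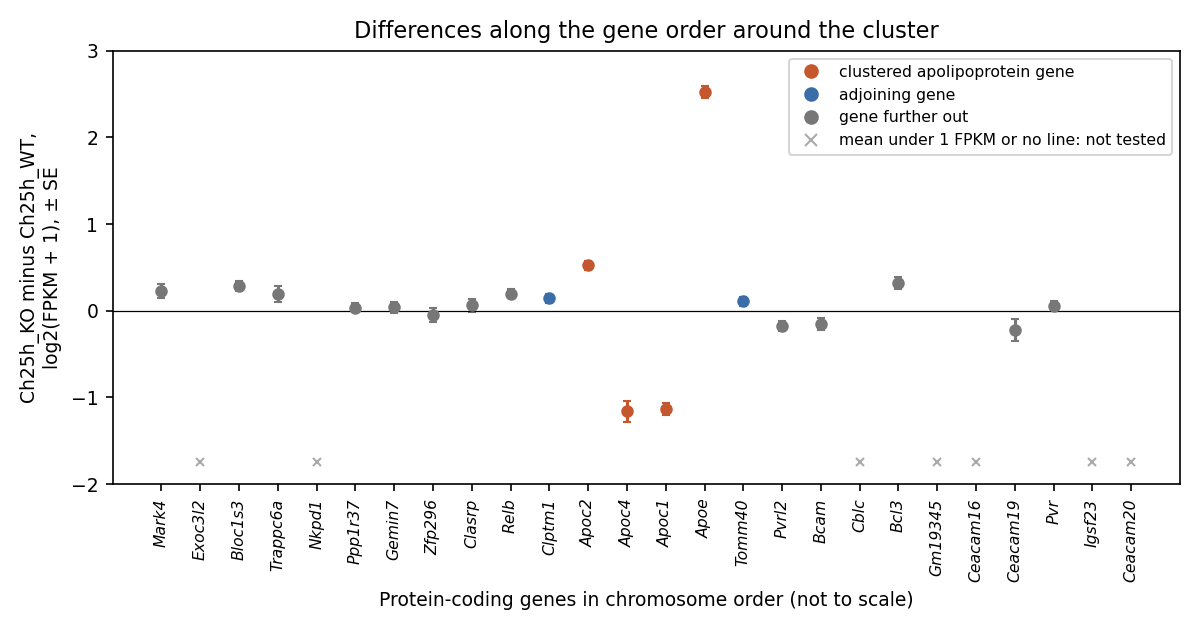
Difference between the groups on the log2(FPKM + 1) scale with its SE, for the 6 genes and the 10 protein-coding genes on each side, in chromosome order and not to scale. Crosses mark genes that were not tested, and the 13 tested outer genes (grey) lie between -0.22 and 0.32 while the 4 apolipoprotein genes (orange) range from -1.16 to 2.52.

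For the gene lists that follow, 20.9% of all tested loci had an unadjusted p under 0.05, and a list's count is to be read against that share. Other apolipoproteins were scarcely detected. Of 27 loci listed (other apolipoprotein and related genes), 12 were at 0 in all 4 libraries, among them Apoa1, Apoa2, Apob and Apoc3, and 24 had a mean under 1 FPKM. Of the 3 tested, none was called by limma, and none had an unadjusted p under 0.05. Apobr, a macrophage receptor for apoB-containing lipoproteins, was 38.5 and 37.8 FPKM in Ch25h_WT and 36.1 and 38.8 FPKM in Ch25h_KO. The other pair encodes proteins of the mitochondrial inner membrane. Apool was 10.1 and 9.14 against 8.07 and 8.76 FPKM (limma adjusted p = 0.28), and the locus of Apoo, which also carries a pseudogene's symbol, had overlapping groups.

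The receptors to which apoE binds gave no call among 14 tested members (limma; 3 at unadjusted p under 0.05, all lower), with a median log2 difference of -0.025 against -0.014 over all loci. Lrp1, the large remnant receptor of macrophages, averaged 48.3 FPKM in Ch25h_WT and 43.7 FPKM in Ch25h_KO, with overlapping groups. Sorl1, a sorting receptor, had the smallest p of the list (8.27 and 7.72 against 5.63 and 6.21 FPKM, log2 difference -0.38, limma adjusted p = 0.11). The heparan sulfate proteoglycan Sdc3 was 61.2 and 63.8 against 49.0 and 53.3 FPKM (limma adjusted p = 0.13). On the higher side were Trem2, a lipid receptor that binds apoE, at 11.3 and 11.8 against 12.4 and 12.7 FPKM (limma adjusted p = 0.34), and the proteoglycan Sdc1 at 8.63 and 9.37 against 9.92 and 10.5 FPKM (limma adjusted p = 0.26).

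Lipoprotein lipase, the enzyme that apolipoprotein C-II activates, did not follow the direction of Apoc2. Lpl was 29.6 and 30.4 FPKM in Ch25h_WT and 23.7 and 24.1 FPKM in Ch25h_KO (log2 difference -0.32, SE 0.053, limma adjusted p = 0.099). Sel1l, needed for its exit from the endoplasmic reticulum, was 33.9 and 34.0 against 31.6 and 30.6 FPKM (limma adjusted p = 0.29). The maturation factors Lmf1 and Lmf2 had overlapping groups, and Gpihbp1, its endothelial anchor, was listed at 0 in all 4 libraries. The single call of this list of 6 tested genes was Lipg, which encodes endothelial lipase and rose from 0.643 and 0.452 FPKM to 1.85 and 1.88 FPKM (log2 difference 0.89, limma adjusted p = 0.035). Lipg is close to the filter of 1 FPKM, and the call was lost without each of the 4 libraries in turn (limma adjusted p between 0.10 and 0.23), with no filter and with a pseudocount of 0.1 FPKM (0.085 in each case), and with the replicate block (0.14).

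Genes of lipid loading onto apoE and HDL were listed together with genes that handle cholesterol inside the cell, such as Lipa. This list gave no call among 9 tested members (limma; 2 at unadjusted p under 0.05, both lower; median log2 difference 0.0027). Lipa, the lysosomal acid lipase, was 148.6 in both Ch25h_WT libraries and 113 and 115 FPKM in Ch25h_KO (log2 difference -0.38, limma adjusted p = 0.078). The exporter gene Abcg1 was 11.7 and 13.4 against 9.99 and 10.2 FPKM, whereas Abca1, which transfers cholesterol to lipid-poor apolipoproteins, was 70.0 and 65.7 against 74.1 and 79.0 FPKM (limma adjusted p = 0.16 and 0.24). Pltp, the phospholipid transfer protein, was 684 and 668 against 717 and 723 FPKM (limma adjusted p = 0.39). Apoe thus lay below Pltp in both Ch25h_WT libraries and above it in both Ch25h_KO libraries. Abca7, a relative of Abca1, was 5.90 and 5.51 against 6.36 and 6.44 FPKM (limma adjusted p = 0.26).

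The LXR genes, their retinoid X receptor partners and co-regulators gave no call among 15 tested members (limma; 2 at unadjusted p under 0.05, both lower; median log2 difference -0.034). Nr1h3, which encodes LXR alpha, was 30.8 and 27.7 FPKM in Ch25h_WT and 19.6 and 21.3 FPKM in Ch25h_KO (log2 difference -0.49, limma adjusted p = 0.097), the same direction as Apoc1 and Apoc4 and the opposite of Apoe and Apoc2. Nr1h2, for LXR beta, was 56.9 and 55.0 against 60.3 and 56.6 FPKM, and Rxra was 31.6 and 32.5 against 32.0 and 34.1 FPKM, with overlapping groups. Tbl1x, of the NCoR corepressor complex, was 13.2 and 13.7 against 11.1 and 11.2 FPKM (limma adjusted p = 0.12).

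For Tomm40, 29 genes of mitochondrial protein import were set beside it. None was called by limma, 6 had an unadjusted p under 0.05 (3 higher and 3 lower), and the median log2 difference was 0.0065. Tomm20, the receptor subunit of the same channel, was 25.5 and 24.2 FPKM in Ch25h_WT and 28.7 and 28.2 FPKM in Ch25h_KO (log2 difference 0.19, limma adjusted p = 0.18), whereas the receptor Tomm70a was 22.2 and 24.3 against 20.6 and 19.8 FPKM (log2 difference -0.19, limma adjusted p = 0.22). Mtx1, of the outer membrane sorting complex, averaged 14.3 against 17.1 FPKM without overlap (limma adjusted p = 0.13), and Timm21, of the inner membrane channel, was 5.95 and 5.66 against 4.55 and 4.28 FPKM (limma adjusted p = 0.11). Timm17b, another subunit of that channel, was 11.4 and 9.94 against 8.56 and 8.90 FPKM (limma adjusted p = 0.18). Tomm40 at 0.11 lay inside the range of this list, -0.33 to 0.29.

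For Clptm1, 10 genes were set beside it, and 0 were called by limma (2 at unadjusted p under 0.05, both lower, median -0.033). Its relative Clptm1l was lower where Clptm1 was higher, at 66.8 and 67.0 FPKM in Ch25h_WT and 57.1 and 57.4 FPKM in Ch25h_KO (log2 difference -0.22, SE 0.051, limma adjusted p = 0.13). Gabarapl1, of the family that traffics GABA-A receptors and forms autophagosomes, was 67.1 and 68.3 against 58.8 and 59.3 FPKM (limma adjusted p = 0.16).

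**Figure D5:**
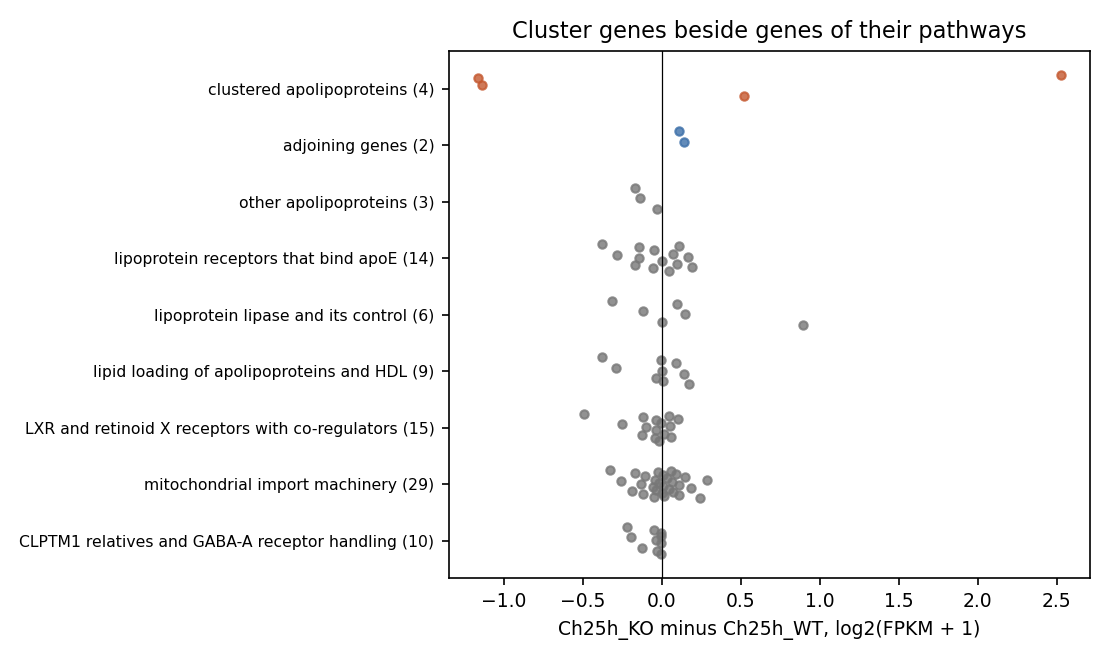
Differences on the log2(FPKM + 1) scale, with 1 point per tested gene, for the clustered apolipoproteins (orange), the adjoining genes (blue) and the 7 pathway lists (grey; number tested in brackets, vertical scatter for legibility). Apart from Lipg at 0.89, the grey points lie between -0.49 and 0.29, while the clustered genes lie at -1.16, -1.14, 0.52 and 2.52.

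Loci with the most similar pattern over the 4 libraries were found by the Euclidean distance between deviations of log2(FPKM + 1) from each locus's own mean, among 9879 loci with a single symbol. For Apoe the nearest was Ly6c2, a surface protein of inflammatory monocytes (3.12 and 2.70 against 14.3 and 17.3 FPKM, distance 0.52), followed by Snora43, listed at 0 in both Ch25h_WT libraries. No locus lay as close to Apoe as those nearest to the other 3 genes. Ly6c2 shares near-identical sequence with Ly6c1, which leaves its level uncertain.

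For Apoc1 the nearest locus was Egln3, an oxygen-sensing prolyl hydroxylase (22.8 and 23.0 against 10.9 and 10.6 FPKM, distance 0.15), followed by the adenylate kinase Ak4 (distance 0.33) and Pemt, a phosphatidylcholine-making methyltransferase (distance 0.36). Egln3 and Pemt were also among the 3 nearest to Apoc4 (distances 0.25 and 0.35), with the uncharacterised 0610039K10Rik between them. For Apoc2 the nearest were Cbr2, a carbonyl reductase (19.3 and 19.4 against 28.2 and 27.8 FPKM, distance 0.035), the stress cytokine Gdf15 (distance 0.036) and the sphingosine kinase Sphk1 (distance 0.041). With 4 libraries in 2 groups such a distance reflects mainly the size of the difference between the groups.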

How the data were processed

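The authors deposited a single table of FPKM per locus for the 4 libraries; its header does not name the unit, which was taken from its values and its Cufflinks-type locus identifiers. The submitters' processing notes name Cufflinks 2.2.1, TopHat2 2.0.14, bcl2fastq and, as genome build, mm9. Annotation, strandedness and scaling were not given in the sources used here. Such values cannot separate genes that overlap or are nearly identical.

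Joining the 24192 lines gave 23735 loci (340 with several symbols), and 0 per-sample columns were left out. Since FPKM are not counts, limma 3.58.1 in R 4.3.3 was fitted to log2(FPKM + 1) with genotype as the single term, over 10074 loci whose mean reached 1 FPKM. This scale understates the change of low genes. Because the labels do not tie mice to libraries, a p-value reflects only how far these libraries spread, which may be technical. The fit was also run on simulated data with independent noise, its spreads taken from the same fit. That run cannot show whether the spread of these libraries is technical.

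Implied depth came from low loci. Of 2274 checked, 86.0% held whole multiples of a common step, with a tolerance of 0.01 times the number of steps. The step tried was the smallest value above 0 or a simple fraction of it. GENCODE M21 lengths were used for 371 of these loci. Gene order and symbols came from RefSeq of GRCm38.p6. The members and lists were chosen with earlier results of these data known. Genes named are the 6 members, Ch25h, list members called or of smallest p (at most 2 in each direction), genes next to the run and the 3 loci most like each apolipoprotein gene. Of the genes this rule names, 1 is not reported here. Other list members and genes near the run were chosen for naming with their values in view. Alternatives were the pseudocount, the filter, 2 scalings, limma's trend and robust options, a replicate block and leaving out each library.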

Additional observations from a re-analysis of the deposited data

How the results depend on the processing

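Of the 6 genes, none changed direction under another pseudocount, 2 scalings, the replicate block or without any of the 4 libraries. The groups of each gene did not overlap, so leaving out 1 library could not turn its direction. The replicate block leaves the difference itself unchanged in this balanced design. These settings therefore show only the range of the difference. The log2 difference ranged from 2.46 to 2.59 for Apoe, -1.21 to -1.07 for Apoc1, -1.31 to -1.02 for Apoc4, 0.50 to 0.54 for Apoc2, 0.084 to 0.13 for Tomm40 and 0.12 to 0.16 for Clptm1. Only that of Clptm1 moved by more than the spread between replicates under a scaling, to 0.12 with totals taken without the 10 highest loci. For the share of Apoe in the summed FPKM, leaving out 1 library of a group leaves the share of the other. This repeats the shares per library given above, 62.7% to 64.9% for Ch25h_WT and 94.2% to 94.7% for Ch25h_KO.

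The count of loci called, 44, depended on the settings. It was 13 to 21 without any 1 library, 6 with the replicate block, 18 with no filter on low values, 175 at a mean of at least 5 FPKM, and 786 with limma's trend and robust options. The share of calls higher in Ch25h_KO was 52.3%, and ran from 23.8% (without Ch25h_WT replicate 2) to 64.3% (without Ch25h_KO replicate 2) when 1 library was left out. The single call over the 7 lists became 0 with a pseudocount of 0.1 FPKM, with no filter, with the replicate block, and without each library in turn (0 in each). It became 3 at a mean of at least 5 FPKM (Lpl, Lipa and Nr1h3, all lower; Lipg was then not tested). It became 8 with the trend and robust options (Lipg, higher, and Lpl, Lipa, Nr1h3, Sorl1, Sdc3, Clptm1l and Gabarapl1, lower), which also called 2 of the 13 tested genes around the run, Relb and Bcl3. The causes were not tested. Same-numbered libraries did not deviate together (r = 0.012 over loci), so their numbers were not taken as pairs. A further 133 genes were followed through these settings, many of them not named here. They were the tested list and marker genes, the tested genes around the run, the loci of most similar pattern and Ch25h. Their 1526 values were compared with those of the fit described above. Over all settings together, 27 calls were lost, 33 were gained and 0 were counted as reversed. That count did not include sign changes of differences that were not called. Such changes occurred, for example for Apobr, Apoo and Lrp8 when 1 library was left out. Depth limits Apoc4 most among the 6 genes.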

Other observations

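Apoe has 2 further start windows in the RefSeq table, both downstream of the one described above. The second held 2 matches to TATAAA and the third 1 match to GAGGAA. The table gives FPKM per locus, so the use of these start sites was not analysed here.

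Clu, which encodes the apolipoprotein also called apoJ, was below the filter of 1 FPKM and was not tested. Its values were 0.269 and 0.280 FPKM in Ch25h_WT, against 0.599 and 0.640 FPKM in Ch25h_KO, and the groups did not overlap. Igsf23, which lies 9 protein-coding genes beyond Tomm40 and was also not tested, was 0.893 and 1.06 FPKM against 0.516 and 0.718 FPKM. Genes of this paragraph were chosen after their values were seen.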
